A study of Mus musculus with 6 samples.

Results

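Heat shock proteins and their co-chaperones were followed in BV2 cells, a mouse microglial line that grows without limit in culture, treated for 1 h with adenine or left untreated. Microglia are the phagocytes that reside in the brain, and adenine is one of the purine bases of nucleic acids. Members were the probes whose symbol in the array's platform annotation begins with HSPA, HSPB, HSPD, HSPE, HSPH or HSP90, or with DNAJA, DNAJB, DNAJC or CCT and a digit. The rule took 99 of 26423 probes, which stand for 80 of 17742 named genes: 13 probes of the HSP70 family, 2 of HSP90, 9 of the small heat shock proteins, 1 of the HSP60/HSP10 pair, 62 of the DNAJ family (8 DNAJA, 17 DNAJB and 37 DNAJC), 10 of CCT, and 2 of proteins named for binding a heat shock protein (Hspbp1 and Hspbap1). The constitutive Hspa8, Hsp90aa1 and the mitochondrial Hspd1 have no probe of that name in the annotation used here.

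Chaperones bind unfolded proteins and help them fold, cross membranes or reach a partner. HSP70 proteins bind and release clients in a cycle driven by ATP, J-domain proteins (the DNAJ family) deliver clients and start ATP hydrolysis, and HSP90 acts later on a narrower set of clients such as kinases and receptors. Each compartment has its own set: Hspa5 and Hsp90b1 work in the endoplasmic reticulum (ER), Hspa9 and Hspe1 in mitochondria, and the CCT ring, which folds actin and tubulin, in the cytosol. Cytosolic members such as Hspa1a are the classic targets of the heat shock factor Hsf1, and the ER members those of the unfolded protein response.

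All groups were BV2 cells of 1 line, with 2 single-colour arrays each: untreated control, a lower and a higher adenine dose. The labels give the doses as 20 and 80 µM in one place and as 80 and 250 µM in another, so only their order is used. The design text speaks of separate cultures, but the titles do not tie each array to one; p-values measure the spread between these arrays, which may be technical. Values below are quantile-normalized intensities in arbitrary units unless called deposited, and each log2 change carries its standard error (SE) from limma with n = 2 per group and a Benjamini-Hochberg adjusted p over all probes, with a threshold of 0.05. Deposited medians ran from 125 to 170 units, and the number of arrays limits the precision. The microglial markers Cd68, Fcer1g and Trem2 were bright on every array. Cx3cr1 was not, at percentile 44.1 of brightness among all probes, below the oligodendrocyte marker Mag (74.1). The 9 microglial markers had a median percentile of 93.1, and those of the other cell types ran from 12.3 to 67.6. At the higher dose 3 of 9 measured microglial markers rose (median log2 change 0.64 over all 9). Changes were negative, without a call, for Csf1r (−0.48), Ptprc (−0.14 by its brighter probe) and Cx3cr1 (−0.13). No marker of astrocytes, neurons, oligodendrocytes, fibroblasts, endothelium or lymphocytes (4 or 5 measured for each) was called. The part of such shifts in the results below was not tested.

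At the higher dose 10 member probes rose and 9 fell, 19.2% of the 99, where 10.6% of all probes on the array passed (5.55% up and 5.06% down). Counted once per gene by the brightest probe, 9 of 80 rose and 6 fell (18.8%, against 11.8% of all named genes). The members were brighter than most probes, with 75 of 99 above the median intensity. Among probes above it alone, 39 of 75 members (52.0%) and 41.8% of all such probes passed. In that fit 13 members rose and 26 fell, so the even balance of rises and falls depends on which probes are tested. The higher-dose arrays lay outside the range of the controls for 73 of 99 members, against 60.1% of all probes. Between the doses 59.2% of all probes lay apart in this way. Where called probes below are said not to overlap other arrays, this describes probes already picked by a small p and adds no support. The count of calls rested on the few arrays. On values as deposited it was 11 (7 up, 4 down), or 11.1%, against 8.09% of all probes. Member calls were lost when either control or either higher-dose array was left out, and were fewer without either lower-dose array. Calls over all probes fell in the same fits.

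Family medians, which carry no test, lay on both sides of 0 at the higher dose. HSP70 probes stood at a median log2 change of −0.49 with 0 up and 2 down of 13, HSP90 at −0.72 with neither of its 2 called, and CCT at −0.51 with 0 up and 2 down of 10. The DNAJ family sat at 0.01 (−0.08 with equal medians) with 8 up and 5 down of 62. Within it, DNAJC held all 8 of the rises and 2 falls. Of these rises 2 are probes of the same gene, Dnajc24, and another is Dnajc8, whose readings lay near 0. Called were 27% of DNAJC probes, 5.88% of DNAJB and 25% of DNAJA, where 10.6% of all probes passed. The share was 15.4% for HSP70, 20% for CCT and 11.1% for the small heat shock proteins, the last near that of all probes. The small heat shock proteins were at 0.20, with 1 rise among 9 probes. Their median was 0.09 without control replicate 1, 0.32 without control replicate 2, 0.07 without higher-dose replicate 2, and 0.05 with the gene span trend removed. All members together had a median of −0.10 and all probes −0.01. On values as deposited the medians were −0.51 for HSP70, −0.40 for HSP90 and −0.20 for CCT, so the last 2 depend in size on the scaling of the arrays.

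**Figure D1:**
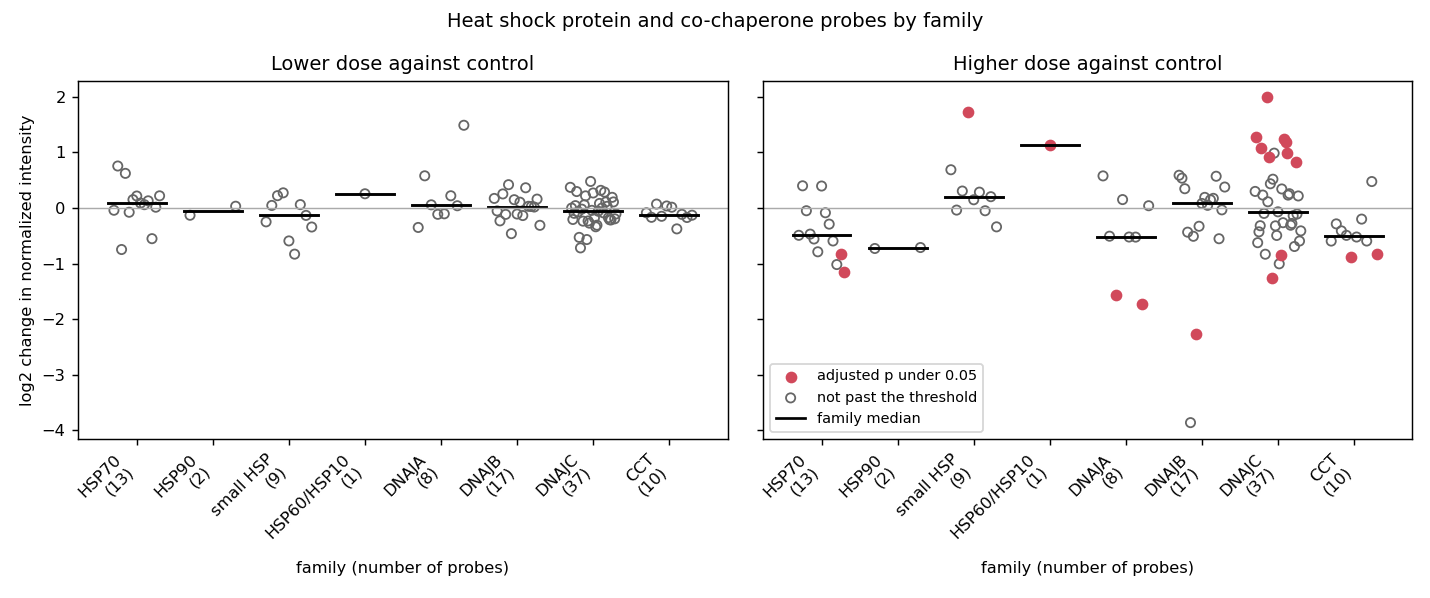
Log2 change in normalized intensity (y axis) of each member probe by family (x axis), for the lower dose (left) and the higher dose (right) against control, with Hspbp1 and Hspbap1 left out; filled red points passed an adjusted p of 0.05 and bars are family medians. No point is filled at the lower dose, and at the higher dose the HSP70, HSP90 and CCT medians lie below 0 while the filled DNAJC points lie mostly above it.

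Of the mitochondrial chaperones, Hspa9 fell and Hspe1 rose at the higher dose. Hspa9, the HSP70 of the matrix that pulls imported proteins inward, read 40014 and 47941 in the controls, 51032 and 51032 at the lower dose and 18918 and 20514 at the higher dose. Both higher-dose arrays lay far below the other 4, a 2.22-fold fall (log2 change −1.15 ± 0.16, adjusted p = 0.024). On values as deposited the change was −0.83 and did not pass. Hspe1, the lid of the HSP60 folding chamber, went the other way, from 5098 and 4158 in the controls to 10486 and 9663 at the higher dose, with 5146 and 5885 at the lower dose. This was a 2.19-fold rise (1.13 ± 0.18, adjusted p = 0.0278), and the higher-dose arrays stood apart from all others.

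The J-domain proteins Dnajc19, Dnajc15 and Dnajc30 of mitochondria rose. Dnajc19, a part of the import motor at the inner membrane, read 433.6 and 381.2 in the controls, 563 and 285.8 at the lower dose and 1484 and 1765 at the higher dose (3.98-fold, 1.99 ± 0.35, adjusted p = 0.0319). Its second, dimmer probe read 0.23 and did not pass. Dnajc15, a J-domain protein anchored in the same membrane, rose 2.36-fold from 9477 and 8655 to 22368 and 20478 (1.24 ± 0.16, adjusted p = 0.0216), with 10352 and 8894 at the lower dose. Dnajc30, also mitochondrial, rose from 1932 and 1888 to 3391 and 3391 (0.83 ± 0.16, adjusted p = 0.0374), and its call was lost on values as deposited. In each of these the higher-dose arrays did not overlap the other 4.

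Dnaja3, the matrix J-domain partner of Hspa9, was read by 3 probes that disagreed. One fell from 4491 and 3781 in the controls to 1351 and 1148 at the higher dose (−1.73 ± 0.18, adjusted p = 0.0199), and another from 1674 and 1684 to 526.2 and 617 (−1.56 ± 0.17, adjusted p = 0.0199). The brightest probe gave 10147 and 1446 in the controls, 10177 and 11375 at the lower dose and 3909 and 3980 at the higher dose. Its control arrays lie on either side of the higher-dose arrays, and the change was 0.04 ± 0.88. Dnajc11, of the inner membrane's organising complex, read 1048 and 1453 in the controls and 522 and 726.4 at the higher dose, short of the threshold (adjusted p = 0.0901). It falls outside the rule by which genes were named and was added with its values known. From the list of other chaperone genes, the mitochondrial HSP90 Trap1 fell (−0.94, adjusted p = 0.0338), a call lost without normalization and with equal medians. So did the matrix protease Lonp1 (−1.11, adjusted p = 0.0207). Hscb, a J-domain protein of iron-sulfur cluster assembly, rose from 610.2 and 596.3 to 1695 and 1732 (1.51 ± 0.16, adjusted p = 0.0198).

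**Figure D2:**
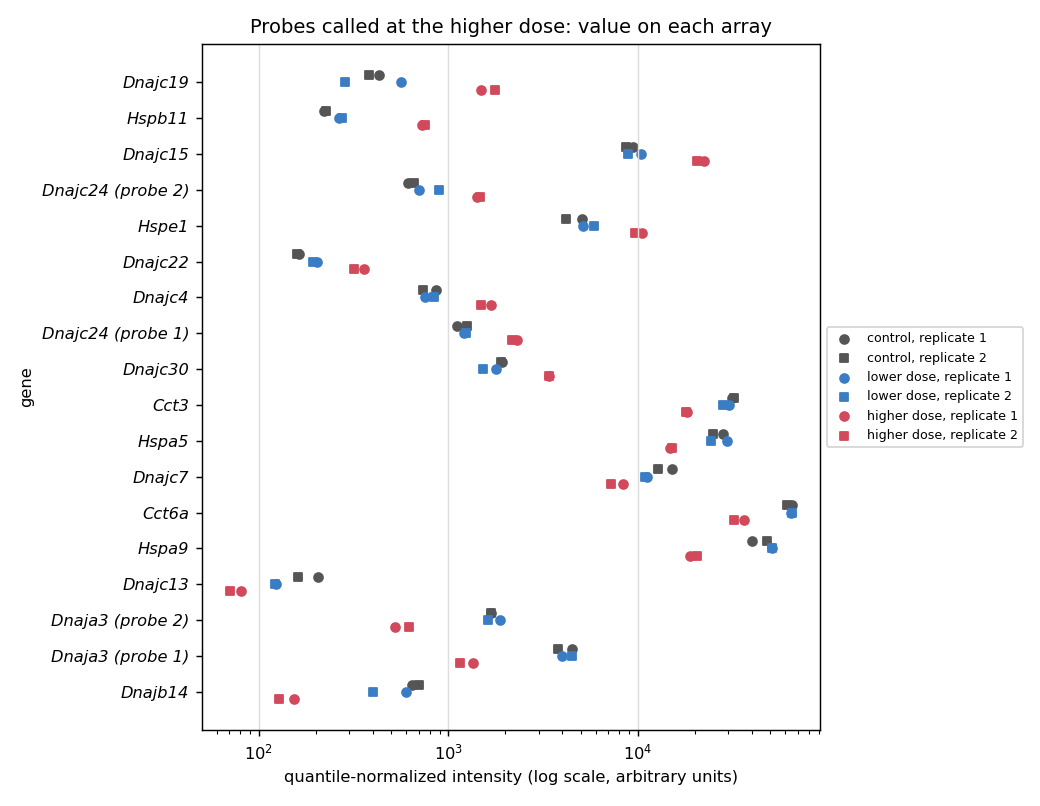
Quantile-normalized intensity on each array (x axis, log scale, arbitrary units) of the member probes called at the higher dose against control (y axis), ordered by change, with colours for group and symbols for replicate; Dnajc8, near 0 on every array, is left out. Red points lie to one side of the grey and blue points in every row, to the right from Dnajc30 upward and to the left from Cct3 downward.

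Of the ER members, Hspa5 and Dnajb14 fell at the higher dose. Hspa5 (BiP), the HSP70 of the ER lumen and the sensor partner of the unfolded protein response, read 28265 and 25079 in the controls, 29667 and 24413 at the lower dose and 14797 and 15189 at the higher dose. The higher-dose arrays lay below all others (−0.83 ± 0.17, adjusted p = 0.0459), and without normalization (−0.51) or with equal medians the call was lost. Hsp90b1 (Grp94), the ER form of HSP90, read 26028 and 21115 in the controls and 14643 and 14028 at the higher dose, a difference of −0.71 ± 0.17 that did not pass (adjusted p = 0.0624). Dnajb14, a J-domain protein of the ER membrane, had the largest called fall of the members, 4.81-fold. It read 645.8 and 701.3 in the controls, 598.7 and 399.8 at the lower dose and 153.5 and 127.7 at the higher dose (−2.26 ± 0.24, adjusted p = 0.0199). Of the listed ER helpers, the disulfide isomerase Pdia4 fell from 4182 and 4052 to 1073 and 1095 (−1.93 ± 0.14, adjusted p = 0.0163). The ER J-domain proteins Dnajb9 (0.35) and Dnajc3 (0.30 and −0.49 by its 2 probes) did not pass.

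Of the member genes with a promoter window, 3 carry an ER stress element. Whether the listed ER helpers outside the rule, such as Pdia4, carry it was not looked up. Its letters, CCAAT, then NNNNNNNNN, then CCACG, were searched on both strands in RefSeq promoter windows (GRCm38.p6, 250 bases before to 50 after each start), of which 67 of the 80 member genes had at least 1. The element was found for Hspa5, Hsp90b1 and Dnajc3, in 3.53% of member windows and 0.119% of all 32851. The search was added after Hspa5 had been seen among the calls. Capitals mark the match in the stretches below, printed 5′ to 3′ on the gene's strand and shown so that the shared letters of 2 lower-reading genes and of Dnajc3 can be compared. Hspa5 is at chr2:34772010-34772058 on the plus strand, Hsp90b1 at chr10:86705518-86705671 on the minus strand with 2 matches, and Dnajc3 at chr14:118937812-118937860 on the plus strand.
Hspa5: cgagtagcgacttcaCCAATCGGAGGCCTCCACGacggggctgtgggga
Hsp90b1: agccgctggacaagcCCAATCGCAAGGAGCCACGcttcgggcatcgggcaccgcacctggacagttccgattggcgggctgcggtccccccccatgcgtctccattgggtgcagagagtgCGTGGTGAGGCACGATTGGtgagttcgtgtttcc
Dnajc3: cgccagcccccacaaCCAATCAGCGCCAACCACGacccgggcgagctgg
In the order printed, the changes at the higher dose were −0.83, −0.71 and 0.30 by the brightest probes, of which Hspa5 alone passed. The other Dnajc3 probe stood at −0.49, so that gene has no settled direction.

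The heat-inducible Hspa1a, Hspa1b, Hsph1, Dnajb1 and Hspb1 did not pass at either dose. Hspa1a, the inducible HSP70, was dim, below the control median of 141.7 over all probes. It read 77.8 and 50 in the controls, 105.8 and 105 at the lower dose and 74.7 and 90.8 at the higher dose (0.40, adjusted p = 0.372). Its near-identical copy Hspa1b read 156.7 and 256.5, 203.8 and 70.2, and 182.7 and 206 in the same order (−0.05, adjusted p = 0.968, and 0.01 as deposited), and probes for such a pair may share signal. For both genes the higher-dose arrays overlap the range of the controls. Hsph1, the nucleotide exchange factor of HSP70, read 3448 and 2746 in the controls and 2183 and 1909 at the higher dose (−0.59, adjusted p = 0.104), and Dnajb1, a J-domain partner of HSP70, 6150 and 6836 against 4092 and 4783 (−0.55, adjusted p = 0.112). Both pairs of arrays are apart in the downward direction without reaching the threshold. Hspb1, a small heat shock protein that binds actin, stood at −0.04, and 0.06 as deposited. Of the list of other chaperone genes, Hsf1 at 0.22 (adjusted p = 0.513), Hsf2 at 0.12 and the HSP70 exchange factor Bag3 at −0.08 were not called. Hsbp1, which binds Hsf1, rose by its brighter probe (0.89, adjusted p = 0.0451) and stood at 0.57 by the other. Hsf4 stood at 0.56 against control (adjusted p = 0.0843) and was higher than at the lower dose (0.79, adjusted p = 0.0371). Hsbp1 and Hsf4 were named after their values were seen.

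The heat shock element is built from GAA units in alternating orientation. Of the 5 genes above, the windows of Hspa1a, Hspa1b, Hsph1 and Hspb1 hold its core and those of Dnajb1 do not. The core in either form, GAANNTTC or TTCNNGAA, was present for 19 member genes, in 24.7% of member windows and 15.1% of all windows. The 3-unit form, GAANNTTC followed directly by NNGAA, searched on both strands and containing both cores, was present for Dnajb6, Hspe1 and Hsph1, in 5.88% of member windows and 0.603% of all. Stretches follow, with matches in capitals, for a gene that did not pass (Hspa1a, chr17:34972238-34972275, minus strand), for the gene that rose (Hspe1, chr1:55088044-55088091, plus strand, 2 overlapping matches) and for Dnajb6 (chr5:29735837-29735879, plus strand).
Hspa1a: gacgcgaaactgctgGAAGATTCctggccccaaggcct
Hspe1: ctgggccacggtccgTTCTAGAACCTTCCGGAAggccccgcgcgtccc
Dnajb6: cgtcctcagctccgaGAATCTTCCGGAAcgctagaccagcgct
Hspa1b has the same 38 letters as Hspa1a in its own window. Of the 3 genes with the 3-unit form, 1 rose (Hspe1), and Dnajb6 (−0.51 by its brighter probe) and Hsph1 did not pass. Of the 19 genes with a core 1 rose and 1 fell, and of the 48 without it 6 rose and 4 fell, beside 11.8% of all named genes called. A match describes the letters only.

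Other HSP70 and HSP90 members had negative changes short of the threshold. Hsp90ab1, the constitutive cytosolic HSP90, read 38764 and 40750 in the controls, 38386 and 34409 at the lower dose and 21841 and 26396 at the higher dose (−0.73 ± 0.17, adjusted p = 0.059). The higher-dose arrays were lowest without overlap. The exchange factor Hspa4 was at −0.49, its relative Hspa4l at −0.79 (adjusted p = 0.0802), the ribosome-associated Hspa14 at −0.56 and the microsomal Hspa13 at −0.47. In all, 11 of 13 HSP70 probes had a negative change. The HSP90 helper Chordc1 fell (−0.77, adjusted p = 0.0388), which did not pass on values as deposited (adjusted p = 0.0606), while Stip1, which bridges HSP70 and HSP90, stood at −0.45. The ubiquitin ligase Stub1 stood at 0.37, and the kinase-loading Cdc37 at −0.07 by its brighter probe, which was 0.22 on values as deposited.

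Among the small heat shock proteins Hspb11 rose and no other was called. Hspb11, despite its name a subunit of the intraflagellar transport complex of cilia, read 221.3 and 225.3 in the controls, 265.5 and 274.7 at the lower dose and 727.3 and 753 at the higher dose. That is a 3.31-fold rise, with the smallest adjusted p of all members (1.73 ± 0.14, adjusted p = 0.0174). Hspb8, a partner of Bag3 in selective autophagy, stood at −0.05, and Hspb6 at 0.69 with adjusted p = 0.2. Probes of Hspb2, Hspb3 and Hspb9 were dim.

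Beyond those described above, the DNAJ family gave further calls. Dnajc24, needed to make diphthamide on translation elongation factor 2, rose by both of its probes. The brighter one went from 1107 and 1256 to 2309 and 2172 (0.93 ± 0.15, adjusted p = 0.0293) and the dimmer from 613 and 657.7 to 1422 and 1471 (1.19 ± 0.18, adjusted p = 0.0255). Dnajc22 rose from 162.4 and 159.7 to 358.7 and 320 (1.07 ± 0.15, adjusted p = 0.0232), and Dnajc4 from 864.8 and 736.7 to 1690 and 1485 (0.99 ± 0.17, adjusted p = 0.0324). These 4 probes had no overlap between higher-dose arrays and the rest. Of all probes, 60.1% had none with the controls and 59.2% none with the lower dose. Dnajc7, which binds both HSP70 and HSP90, fell from 15205 and 12819 to 8379 and 7238 (−0.84 ± 0.17, adjusted p = 0.0436), with 11231 and 10884 at the lower dose between them. Dnajc13, of endosomal sorting, fell by a dim probe (−1.27 ± 0.19, adjusted p = 0.025), and its brighter probe stood at −0.59. Calls for Dnajc7, Dnajc4 and the brighter Dnajc24 probe were lost on values as deposited. Dnajc8 also counts among the rises, but its deposited readings lay between −2 and 2 units on all arrays, where the floor sets the change, and no fold is given.

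The CCT ring and prefoldin, the complex that hands it actin and tubulin chains, gave calls in opposite directions, falls for the ring and rises for prefoldin. Cct3 read 31522 and 32373 in the controls, 30307 and 28188 at the lower dose and 18085 and 18019 at the higher dose (−0.82 ± 0.14, adjusted p = 0.0318). The brighter probe of Cct6a fell from 64838 and 61516 to 36522 and 32373 (−0.88 ± 0.15, adjusted p = 0.0313). Tcp1, the subunit whose name falls outside the rule, fell from 4900 and 4844 to 2844 and 2906 (−0.76, adjusted p = 0.0383). Of the 8 ring genes 3 fell and 0 rose, where 11.8% of all named genes passed in either direction, and their median was −0.56. The remaining 5 ran from −0.59 (Cct4, adjusted p = 0.0639) to −0.28 (Cct5). On values as deposited the median was −0.24, all 3 calls (Cct3, Cct6a and Tcp1) were lost and Cct5 was at 0.05. For Cct7, control replicate 2 and both lower-dose arrays lay near the top of the scale, at or above 65000 deposited units, as did lower-dose replicate 2 for Cct6a and Cct8, so those levels are bounds.

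Prefoldin subunits rose by their brightest probes. Pfdn5 went from 7863 and 9224 to 19168 and 22246 (1.28, adjusted p = 0.0243) and Pfdn4, by its brighter probe, from 1992 and 2429 to 4760 and 5950 (1.27, adjusted p = 0.0282). Pfdn2 went from 2989 and 2497 to 5985 and 5828 (1.11, adjusted p = 0.0349), and Pfdn1, named after its values were seen, from 1844 and 1755 to 3935 and 3703 (1.09, adjusted p = 0.0397). By these probes the higher-dose arrays were above every other array. The dimmer probes of Pfdn4 (0.42, adjusted p = 0.403) and Pfdn1 (0.14, adjusted p = 0.586) did not pass, and with equal medians the Pfdn1 call was lost. Vbp1 stood at 0.13. By the brightest probe 4 of 5 measured subunits rose, where 11.8% of all named genes passed, with a median of 1.11 (1.18 as deposited). Prefoldin was not among the families set beforehand and was grouped with values known, so this share adds no support. Pdcl, a phosducin-like partner of the ring, fell (−1.64, adjusted p = 0.0252).

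**Figure D3:**
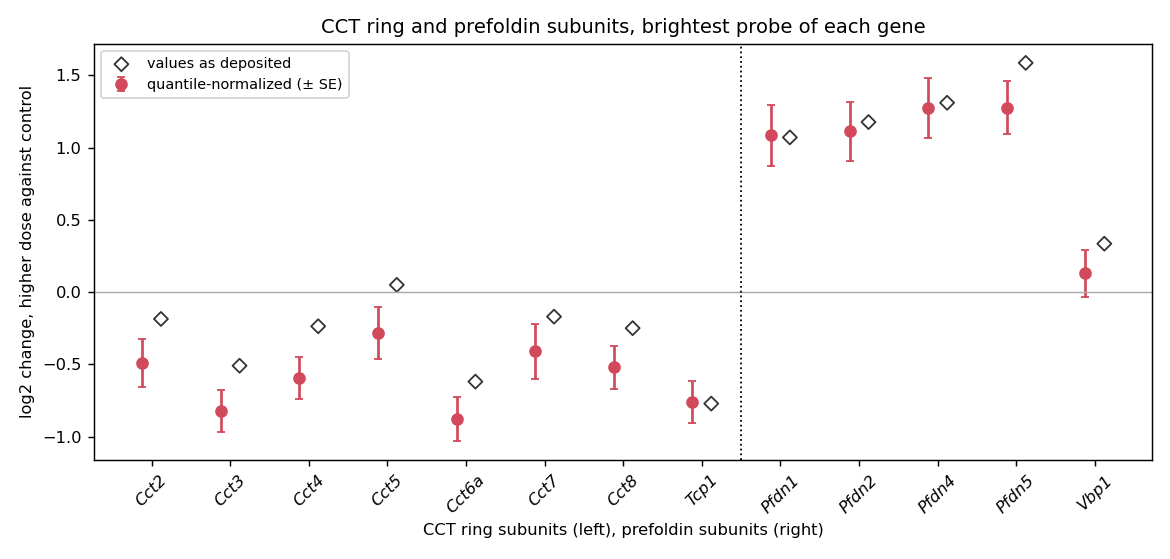
Log2 change at the higher dose against control (y axis) for 8 CCT ring subunits and 5 prefoldin subunits (x axis), brightest probe of each gene; red points with bars are quantile-normalized changes ± SE and open diamonds are changes on values as deposited. Red points of the ring lie below 0 and those of prefoldin above it, while Cct5 crosses to 0.05 as deposited.

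Over the list of other chaperone and co-chaperone genes, 55 of 62 were measured. At the higher dose 8 rose and 8 fell (29.1%, against 11.8% of all named genes), with a median of −0.17, and at the lower dose 0 passed.

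At the lower dose no member passed, where 0.0114% of all probes did. At an unadjusted p under 0.05 there were 9 member probes, 6 up and 3 down (9.09%, against 6.36% of all probes), and the smallest adjusted p was 0.764. Hspb9, a testis form of the small heat shock proteins, was dim, below the control median of 141.7 over all probes. It read 56.2 and 51.3 in the controls and 29.2 and 31.3 at the lower dose (−0.83 ± 0.15). Hspa13 read 1258 and 1086 in the controls and 1754 and 1850 (0.62 ± 0.16), and Hspa1a stood at 0.76 ± 0.26. Hspa1b, its near-identical copy, had the opposite sign at −0.75, with arrays that overlap. The arrays of Hspb9, Hspa13 and Hspa1a do not overlap between the groups, as for 40 of 99 members and 35% of all probes. Family medians lay near 0. On values as deposited the median of all probes shifted by 0.22 in this comparison, and the HSP70 median of 0.29 is to be read against that.

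The doses were also compared with each other, with the same higher-dose arrays as above. Among members, 15 probes read higher with more adenine and 14 read lower (29.3%, against 13.7% of all probes, 6.78% higher and 6.95% lower). Of these, 17 were called against control too, 12 were not, and 2 were called against control alone. Hspa13 was lower, at 833.8 and 855.7 against 1754 and 1850 at the lower dose (−1.09 ± 0.16, adjusted p = 0.0219). Dnajb6, which keeps polyglutamine proteins from aggregating, read 2110 and 1981 against 3923 and 3859 by its brighter probe (−0.93, adjusted p = 0.0293). Dnajc10, a disulfide reductase of the ER, read 1625 and 1454 against 2534 and 2821 (−0.80, adjusted p = 0.0353). By these 3 probes the lower-dose arrays were above the controls and the higher-dose arrays below both controls. The other Dnajb6 probe was not called. It ran from −0.11 to 0.24 between the doses over the settings tried and stood at 0.19 against control. Hspa4l (−0.94, adjusted p = 0.0489), Hsp90b1 (−0.74, adjusted p = 0.04999) and the dimmer probe of Dnaja2 (−1.09, adjusted p = 0.0201) were lower as well. The dim Hspb9 (1.12), Dnajc17 (1.26), Dnajc18 by 1 of its probes (0.75) and Dnajb12 (0.69) were higher. The 12 probes also include both of Dnaja1, which had opposite signs. When any 1 array was left out, no member call of this comparison was kept, and nearly all other calls on the array were lost too. On values as deposited 6 probes were higher and 12 lower, where the median of all probes was −0.25.

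Probes of the same gene did not always match. Of 17 member genes with several probes, 7 had probes of opposite sign at the higher dose, 5 had at least 1 probe called, and in Dnaja3 and Dnajc24 more than 1 was called. The 2 Dnaja1 probes, for the main J-domain partner of cytosolic HSP70, stood at 0.58 and −0.52 against control, neither past the threshold. Dnajc19, Dnajc13 and Cct6a each rest on 1 probe of 2.

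**Figure D4:**
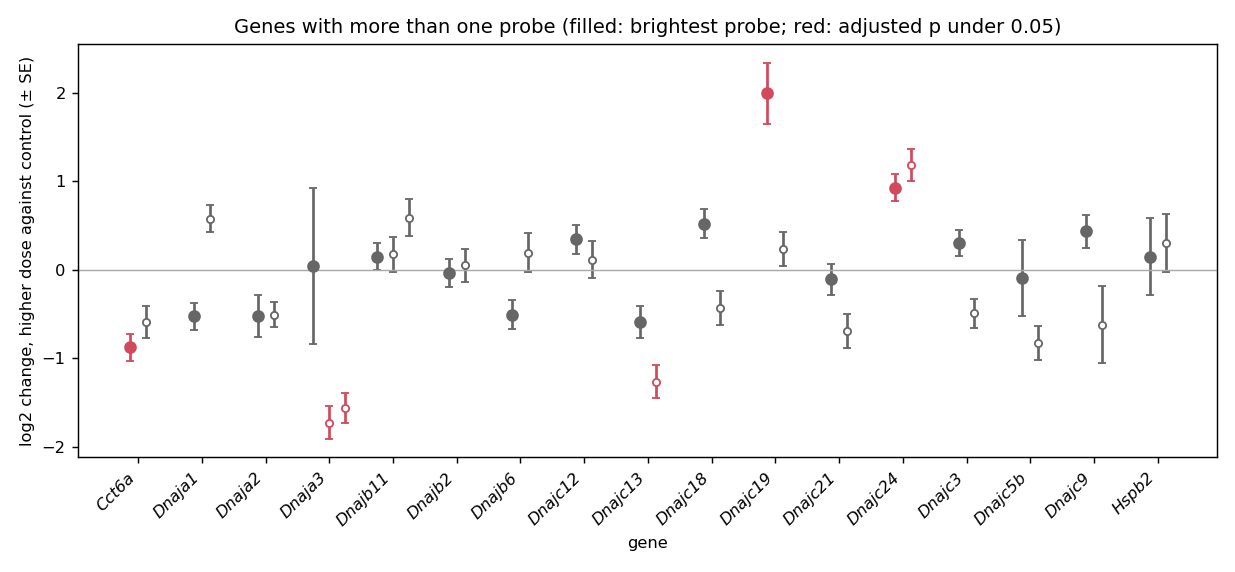
Log2 change at the higher dose against control (y axis, ± SE) for every probe of the 17 member genes with more than 1 probe (x axis); the filled point is the gene's brightest probe and red marks an adjusted p under 0.05. Dnajc24 is red in both probes, and Dnaja3 has 2 red probes below 0 beside a brightest probe at 0.04 with a long bar.

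Rises and falls differed in median brightness and median gene span, neither of which the rule used. The 6 genes that fell had a median brightness percentile of 99.3 among all probes and a median span of 31.1 kb. For the 9 that rose these were 76.9 and 18.2 kb, with 17.6 kb over all 80 genes. The spans overlap, from 4.44 to 59.1 kb for falls and from 1.16 to 48.7 kb for rises. Across the 80 genes Spearman's rho with the change was −0.36 for brightness and −0.22 for span. These are descriptions over genes measured on the same 6 arrays. With the gene span trend removed, 22 member probes were called at the higher dose against control, 10 up and 12 down. That is 22.2%, against 13.1% of the 20336 probes with a known span, and 18 of the 19 main calls were kept. Beyond this, the part of brightness and span in the results was not tested.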

How the data were processed

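Cy5-labelled cDNA was hybridised to Phalanx mouse OneArrays, per the labels. The deposited values are linear spot intensity, and values below 0 show that a background was taken off. The submitters' processing notes name RMA, which gives log values, so the step behind these linear values is not given in the sources used here. Symbols came from the old platform annotation. All 99 member symbols matched the RefSeq table exactly.

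Arrays were quantile-normalized, values under 1 set to 1, and log2 taken. All 6 arrays were fitted in limma 3.58.1 (R 4.3.3; lmFit, eBayes, 3 residual degrees of freedom, two-sided, Benjamini-Hochberg over 26423 probes, threshold 0.05). The script was tested on simulated data. Groups came from titles. Named were all called members, the 2 smallest p per family against control at each dose, a fixed set of chaperones, and, of a list of other chaperones, up to 10 called by smallest p plus a fixed few. Some further genes, such as Dnajc11 and Pfdn1, were named with their values known. The members, lists, normalization and tests were chosen with earlier results of these data known. Family medians carry no test. Alternatives are in the closing section. Figures used Python 3.11.15 and matplotlib 3.10.9. Protein sequences were not used here.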

Additional observations from a re-analysis of the deposited data

How the results depend on the processing

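With 2 arrays per group, counts of calls moved with the fit. Each of the 19 member probes called at the higher dose kept its sign under every alternative it was tested in. Small values that were not called did change sign, such as the lower-dose medians of HSP90 (−0.048 to 0.057) and the small heat shock proteins (−0.13 to 0.12) without normalization, of HSP70 (0.09 to −0.04) without control replicate 2, and of DNAJ at the higher dose (0.0051 to −0.08) with equal medians. Against control the 19 probes (15 genes) became 11 (7) without normalization, 39 (31) among probes above the median intensity, 37 (29) with a trended prior, 10 (7) with only the groups compared, 31 (23) at a threshold of 0.1, and 0 to 10 (0 to 7) without 1 array. Between the doses the 29 probes (24 genes) became 18 (15) without normalization, 44 probes among brighter ones, 0 (0) with only the groups compared and 0 (0) without any 1 array. The share of members called against control, with that of all probes after it, was 11.1% (8.09%) without normalization and 52% (41.8%) among brighter probes. It was 37.4% (18.9%) with a trended prior, 10.1% (5.99%) with only the groups compared and 31.3% (19.9%) at a threshold of 0.1. For higher against lower dose it was 18.2% (15.5%) without normalization and 58.7% (46.7%) among brighter probes. Rises made up 52.6% of calls against control, 63.6% without normalization, 33.3% among brighter probes, 32.4% with a trended prior, 38.7% at a threshold of 0.1 and 40.7% with log2(value + 16). Between the doses they made up 51.7%, 33.3% without normalization and 38.6% among brighter probes. Without 1 array the calls over all probes fell as well. Differences between replicates 1 and 2, over probes above the median intensity, were correlated between groups. The r was 0.0326 for control and lower dose, 0.313 for control and higher dose and −0.226 for the 2 doses, so pairing by number is not settled. With the replicate block 0 probes (0 genes) were called against control, where 0.0416% of all probes passed. Between the doses 11 (8) were called, 11.1% against 5.28% of all probes.

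Some family medians moved without normalization, and the median of all probes is given beside them. Lower dose against control, HSP70 was 0.29, HSP90 0.057, DNAJ 0.19 and CCT 0.00 (0.0003), with all probes at 0.22. Higher dose against control, HSP90 was −0.40 and CCT −0.20, with all probes at −0.0018. Between the doses, HSP70 was −0.64, HSP90 −0.45, DNAJ −0.25 and CCT −0.23, with all probes at −0.25. With equal medians, HSP90 and CCT gave −0.20 and −0.25 at the lower dose, −0.47 and −0.28 at the higher dose and −0.27 and −0.051 between the doses. Between the doses, HSP90 was −0.77 with the gene span trend removed and DNAJ −0.20 among brighter probes. Without 1 array they ran from −0.66 to −0.32 for HSP70, 0.285 to 0.80 for the small heat shock proteins, −0.11 to 0.020 for DNAJ and −0.48 to −0.36 for CCT, the first value for HSP70 being without lower-dose replicate 2 and the second without replicate 1. The causes were not tested.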
